A study of Mus musculus with 4 samples.

Results

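The 508 sites described here are cytosines of mouse E14 embryonic stem cells that the authors listed in DNA of cells with Tdg shRNA, that are missing from the list made with control shRNA, and that appear again in DNA of wild-type cells. Sites were listed by methylation-assisted bisulfite sequencing (MAB-Seq). E14 is an established line of mouse embryonic stem cells. The series held 2 whole-genome libraries of wild-type E14 cells (library 1 and library 2), 1 reduced-representation library, made from MspI fragments, of E14 cells with a control shRNA and 1 of E14 cells with an shRNA against Tdg. The shRNA sequences, the number of clones and the extent of Tdg depletion were not analysed here, and the protocols do not say whether the wild-type libraries came from separate cultures. A Tdg shRNA position was kept if it lay on chromosomes 1 to 19 of mm9 outside the start of chromosome 9 and a window of 10000 bp on chromosome 2, both crowded with sites, and if the control shRNA list had no site at the same base or 1 base to either side. It also had to stand in the list of at least 1 wild-type library at the same base. Members were thus chosen by being listed or not in each library, and their levels and p-values were not used. The 4 lists held 472220 sites in all. Of 8948 positions in the Tdg shRNA list, 7980 lay in the permitted places, 6553 of these were absent with control shRNA (Tdg-only sites), and 508 of these were listed in wild type. The mirror rule gave 12399 permitted positions with control shRNA, 10978 control-only sites and 386 control-only sites listed in wild type.

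TET enzymes oxidise 5-methylcytosine stepwise to 5-hydroxymethylcytosine, 5-formylcytosine and 5-carboxylcytosine. TDG, a DNA glycosylase, cuts out the last 2 of these, and base excision repair puts an unmodified cytosine in their place. In MAB-Seq the CpG methyltransferase M.SssI first methylates unmodified CpG cytosines. Bisulfite then converts 5-formylcytosine and 5-carboxylcytosine, and cytosines that escaped the enzyme, so that they are read as thymine. The level of a site is the percentage of reads converted, after subtraction of a background, as read from the deposited values themselves. A list entry is the authors' call. A missing entry can mean a low level or too few reads, and the read depth of both shRNA libraries and of library 1 is unknown.

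The files hold sequence for library 1 alone, as the 5 bases centred on the cytosine of the plus strand. The following are shown because they are members listed in both wild-type libraries at a level of 100% in the Tdg shRNA library, the highest possible. There were 12 such members, and all are shown but 1, which lies on chromosome 18. The CpG is in capitals, each is written 5′ to 3′ on the plus strand, and positions are those of mm9.
chromosome 4, 152381683: agCGa
chromosome 8, 3754459: gcCGa
chromosome 13, 7601264: ccCGc
chromosome 12, 68160163: ccCGg
chromosome 11, 3096014: aaCGg
chromosome 7, 7230919: caCGa
chromosome 4, 3008194: caCGg
chromosome 2, 181667150: atCGa
chromosome 5, 33080679: acCGc
chromosome 4, 3008204: acCGt
chromosome 10, 22101254: tcCGg
The bases beside the CpG differ from site to site, and ccCGg, on chromosome 12, and tcCGg, on chromosome 10, are the only ones of them that hold the full MspI recognition sequence CCGG. In wild-type library 1 the sites on chromosomes 4 (152381683), 8 and 13 were also at 100%, and the site on chromosome 12 was at 99.4%. The chromosome 18 site was at 91.0%. The sites on chromosome 11, chromosome 7 and at position 3008194 of chromosome 4 had 70.9%, 59.9% and 54.0% in library 1. The sites on chromosomes 2 and 5 had 46.2% and 42.1%. At 0 in library 1 were position 3008204 of chromosome 4 and the chromosome 10 site. The 12 thus spanned the whole range of library 1 while standing at 100% with Tdg shRNA. The chromosome 10 site carried a deposited p-value of 8.73e-13 in library 2 and the other 11 a p-value of 0, from which reads cannot be recovered. The nearest site of the control shRNA list was 13 bp away for the chromosome 8 site, with a level of 1.06%, and 127 bp away for the chromosome 12 site, with a level of 13.3%. For the other 10 sites it lay between 16254 bp (chromosome 11) and 857598 bp (chromosome 4, 3008194) away. Which genes lie at these sites was not analysed here, because no annotation of mm9 was used.

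Wild type listed 7.75% of Tdg-only sites (exact 95% interval 7.12% to 8.43%) and 3.52% of control-only sites (3.18% to 3.88%). The background is 8.4% of all permitted Tdg shRNA sites and 4.36% of all permitted control shRNA sites. These counts follow from the rule and are given as a description. The 508 members outnumbered the 386 control-only sites 1.32 times (exact conditional 95% interval 1.15 to 1.51), although the Tdg-only list was the shorter. Each shRNA group is 1 library, so no difference between them can be tested against replicate spread, and all intervals cover counting error over sites only, which neighbouring sites on the same reads do not meet independently. PCR copies were not told apart. Among the 1427 sites that the Tdg shRNA library shared with the control library, 11.4% (9.75% to 13.1%) were listed in wild type, a larger share than of Tdg-only sites.

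The excess over the control list came with library 2. Library 2 listed 338 Tdg-only sites and 126 control-only sites, or 5.16% (4.63% to 5.72%) and 1.15% (0.957% to 1.37%) of each. Library 1 listed 259 Tdg-only and 281 control-only sites, or 3.95% (3.49% to 4.45%) and 2.56% (2.27% to 2.87%). The share of Tdg-only sites was thus 4.49 times (3.65 to 5.56) that of control-only sites in library 2 and 1.54 times (1.30 to 1.83) in library 1. Of the 1427 Tdg shRNA sites shared with the control library, library 2 listed 96 and library 1 listed 98, larger shares than of Tdg-only sites. The ratios thus cannot be read as particular to Tdg-only sites. The share of each library over all permitted shRNA sites was not analysed here. With library 1 alone the ratio of counts fell to 0.922 (0.775 to 1.10), so the larger number of members than of control-only sites rests on library 2. Within library 2 it was found on both strands, with 172 members and 58 control-only sites on the plus strand and 166 and 68 on the minus strand. Both libraries listed 89 members and 21 control-only sites, or 17.5% and 5.44% of each group. Of the other members, 170 were in library 1 alone and 249 in library 2 alone.

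Tdg-only sites met library 2 sites more often at the same cytosine than at its partner, and library 1 sites about equally often at both. Both cytosines of a CpG are adjacent bases on opposite strands, so a listing 1 base away marks the partner cytosine. Library 2 listed 338 Tdg-only sites at the same base and 153 at 1 base to either side, a ratio of 2.21. For control-only sites the numbers were 126 and 116, a ratio of 1.09. At distances of 2 to 4 bases, between 8 and 22 Tdg-only sites and between 9 and 27 control-only sites met a library 2 site at each offset. Library 1, which lists the plus strand only, listed 259 Tdg-only sites at the same base and 235 at the base before. For control-only sites it listed 281 and 285.

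Support in wild type gives the strand of a member, which the shRNA lists do not. Library 1 lists plus-strand cytosines only and library 2 lists both strands. Of the members, 342 were plus-strand and 166 minus-strand cytosines. This imbalance is set by library 1, since within library 2 the members were 172 plus and 166 minus. The Tdg shRNA list also held the partner cytosine of 24 members (4.72%). None of the 386 control-only sites in wild type had its partner in the control list, where the exact upper 95% limit is 0.951%. How often other Tdg-only sites or all permitted sites have their partner listed was not analysed here. The shares thus cannot be read as particular to members. At 10 CpGs both cytosines were members. Except on chromosome 6 and at position 70039272 of chromosome 4, these lay at chromosome starts or in dense runs, both described below. At position 3044604 of chromosome 11 the plus strand had 100% and the minus strand, at 3044605, 96.9%. At position 70039272 of chromosome 4 the levels were 27.1% and, at 70039273, 24.4%. These pairs were close, whereas position 103599254 of chromosome 6 had 35.4% against 100% at its partner 103599255.

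Most members had low levels with Tdg shRNA, and a minority stood near full conversion. The levels of the 508 members ranged from 0.558% to 100%, with a median of 12.6% (95% interval from order statistics 12.1% to 13.8%) and quartiles of 8.31% and 27.6%. The 6045 Tdg-only sites not listed in wild type had a median of 11.4%, and their upper quartile was 15.4%. The 386 control-only sites in wild type had a median of 8.20% (7.58% to 8.78%) in the control library, and their upper quartile was 13.3%. The 10592 control-only sites not listed in wild type had a median of 8.90%, so control-only sites were lower than Tdg-only sites inside and outside wild type. Among these groups medians thus differed by few percentage points, and the upper part of the range differed more. High levels were not particular to members. The 162 sites shared with the control library and listed in wild type had a median Tdg shRNA level of 74.6% (51.0% to 96.0%). Of these, 58.0% stood at 50% or more.

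At 50% or more stood 95 members, 18.7% (15.4% to 22.4%), against 3.95% of all Tdg-only sites and 10.3% of all permitted Tdg shRNA sites. Only 10 control-only sites in wild type reached 50%, 2.59% (1.25% to 4.71%), against 2.37% of all control-only sites and 7.25% of all permitted control shRNA sites. At 100% were 35 members (6.89%), 81 Tdg-only sites outside wild type (1.34%) and 53 of the 162 shared sites in wild type (32.7%). The share at 100% over all permitted Tdg shRNA sites was not analysed here. Levels of 50% or more were therefore commoner among members than among the Tdg-only sites outside wild type (2.71%), and control-only sites inside and outside wild type had 2.59% and 2.36%.

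The share of Tdg-only sites that wild type listed varied with their level. It was 15.6% (11.4% to 20.6%) below a level of 5%, 6.30% (5.32% to 7.41%) from 5% to 10% and 5.25% (4.52% to 6.06%) from 10% to 20%. It was 11.7% (9.08% to 14.9%) from 20% to 50%, 42.3% (32.7% to 52.4%) from 50% to 90% and 32.9% (25.6% to 40.9%) at 90% or more. For control-only sites the 6 shares lay between 2.98% and 5.30%, and in each range of level they were below those of Tdg-only sites, with intervals that did not overlap. From 50% upwards, 95 of 259 Tdg-only and 10 of 260 control-only sites were listed in wild type. These are 36.7% (30.8% to 42.9%) and 3.85% (1.86% to 6.96%) of lists of nearly equal size. Sites at this level that both shRNA libraries listed fell between them, with 16.6% of 565 by the Tdg shRNA level.

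**Figure D1:**
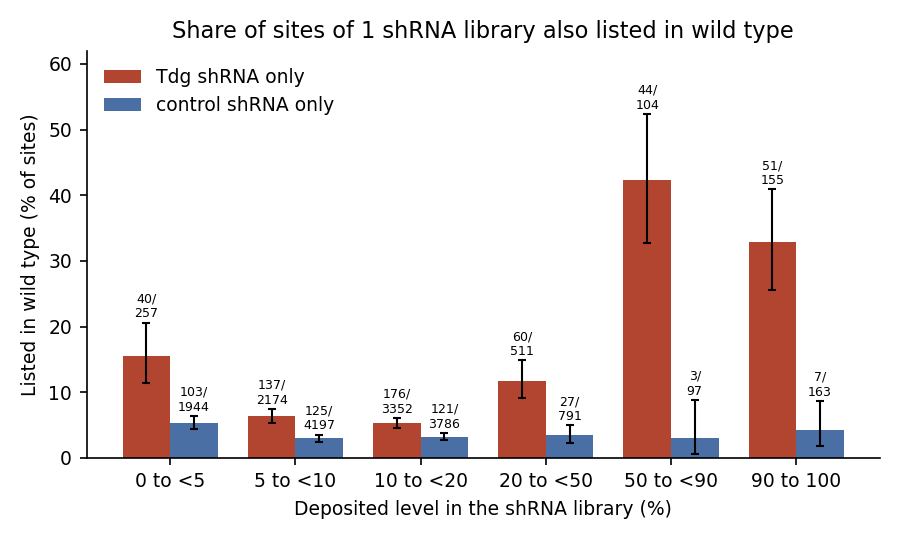
Share of Tdg-only (red) and control-only (blue) sites that a wild-type library listed at the same base, in %, by deposited level in the shRNA library in %. Bars are shares of sites of 1 library each, lines are exact 95% intervals and the numbers are listed over all sites; the red bars rise to 42.3% from a level of 50% while the blue ones stay at or below 5.30%.

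Members in both wild-type libraries had the highest levels. Since library 1 lists no minus-strand cytosine, the libraries are compared here on the plus strand. The 89 plus-strand members in both had a median Tdg shRNA level of 28.9% (17.3% to 56.9%), and 40.4% (30.2% to 51.4%) reached 50%. The 170 in library 1 alone had a median of 12.1%, and 6.47% (3.27% to 11.3%) reached 50%. The 83 plus-strand members in library 2 alone had a median of 9.36%, and 3 of them reached 50%. Of the 50 plus-strand members at 50% or more, library 1 thus listed 47 and library 2 listed 39. The 166 minus-strand members, all in library 2 alone, had a median of 13.8% (11.9% to 17.3%), and 27.1% (20.5% to 34.5%) reached 50%. The 21 control-only sites in both libraries had a median of 8.99%, with 2 sites at 50% or more.

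**Figure D2:**
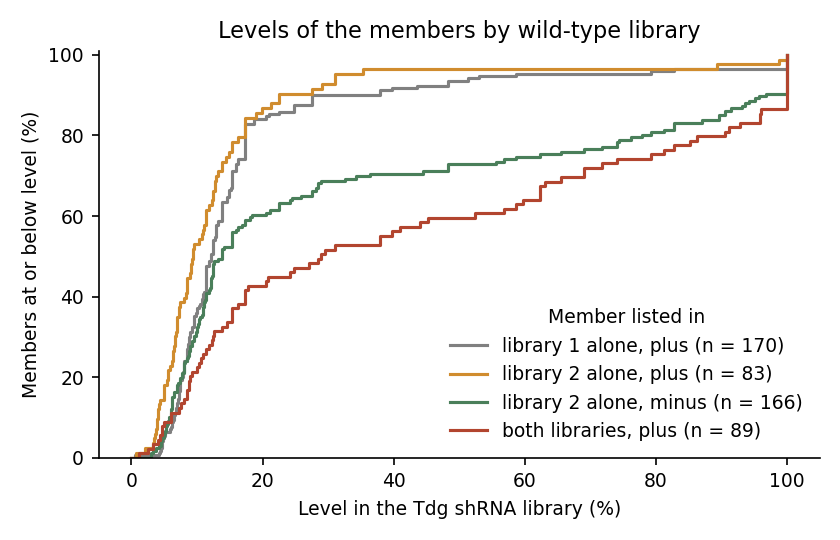
Cumulative share of members, in %, at or below a given level in the Tdg shRNA library, in %, for plus-strand members in library 1 alone (grey), library 2 alone (orange) and both (red), and for minus-strand members (green), which library 1 does not list. The red curve lies to the right with a median of 28.9%, and the orange one reaches 50% with all but 3 of its 83 sites below.

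In library 1 the members resembled the rest of the list at the median and stood above it at the upper end. The 259 members in library 1 had levels there from 0 to 100% with a median of 12.5% (11.2% to 14.1%), and the other 325595 permitted sites had a median of 11.1%. Here and below, the list of a wild-type library covers the whole genome, whereas members and control-only sites can lie in MspI fragments only. At 50% or more were 36 members, 13.9% (9.93% to 18.7%), against 5.77% of all permitted library 1 sites. Control-only sites had 8 of 281 there, 2.85% (1.24% to 5.53%). At 0 were 49 members, 18.9% (14.3% to 24.2%), and 20.1% of the other sites, so a listing at 0 was no rarer among members. The 89 members in both wild-type libraries had a library 1 median of 27% and the 170 in library 1 alone 11.0%.

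Levels of the same members in the 2 kinds of library were related loosely. Across the 259 members, Spearman's rho of the Tdg shRNA level and the library 1 level was 0.40, and 0.60 across the 89 in both wild-type libraries. It was 0.11 across the 281 control-only sites with their control shRNA level. These are correlations across sites of the same libraries, given as a description. The Tdg shRNA level was the higher at 151 members, the lower at 102 and equal at 6 once the background was added back, with a median difference of 2.29 points (1.10 to 4.29). No member was at 0 with Tdg shRNA, so the 49 members at 0 in library 1 are higher with Tdg shRNA by construction. Among the other 210 it was higher at 102 and lower at 102. Within 10 points of each other were 147 members, 56.8%. Of the 47 members at 50% or more with Tdg shRNA that library 1 listed, 31 were at 50% or more in wild type too and 5 were at 0.

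**Figure D3:**
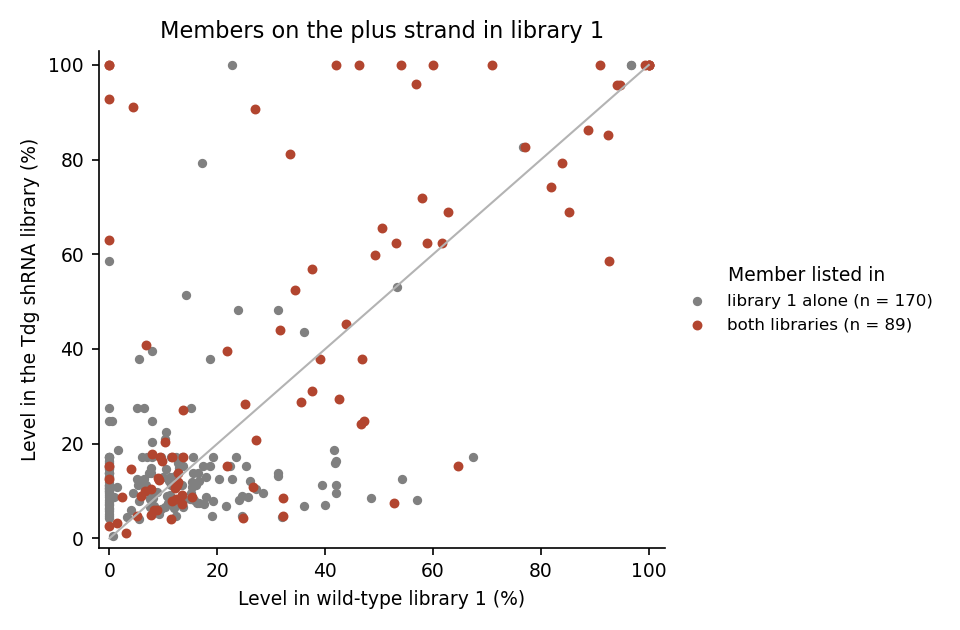
Level of the 259 members listed in library 1, in %, in the Tdg shRNA library (vertical) against wild-type library 1 (horizontal), 1 point per site, with the line of equality; red points are the 89 members in library 2 as well. Above 50% on both axes lie 31 sites, and 5 sites at 50% or more with Tdg shRNA lie at 0 in library 1.

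Library 2 gave the members stronger evidence than the rest of its list taken as a whole. The deposited p-value was at or below 1e-07 at 143 of 338 members, 42.3% (37.0% to 47.8%), against 13.3% of all permitted library 2 sites. It was 0 at 105 of them. Of control-only sites, 6 of 126 had a p-value at or below 1e-07, 4.76% (1.77% to 10.1%). Tdg shRNA sites shared with the control library had one more often than members, at 62 of 96, 64.6% (54.2% to 74.1%). The median p-value was 1.23e-05 for members, 0.00265 for control-only sites and 0.00154 for the other 113846 sites. Small p-values were most frequent at high level, and below 50% they were still more frequent than in the whole list. Among the 84 members at 50% or more in the Tdg shRNA library that library 2 listed, 80 had a p-value at or below 1e-07, and among the 254 below 50% it was 63, or 24.8% (19.6% to 30.6%). The level in the Tdg shRNA library and the p-value in wild type come from separate libraries and neither was used to choose the members beyond their listing.

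**Figure D4:**
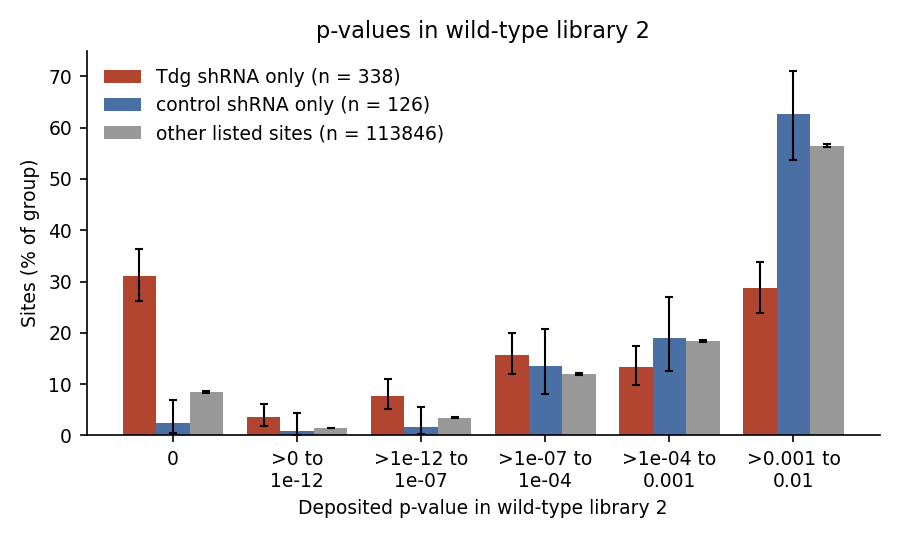
Share of sites, in %, by deposited p-value in wild-type library 2 for members (red, n = 338), control-only sites (blue, n = 126) and the other permitted sites of the list (grey, n = 113846), with exact 95% intervals. Members are 31.1% at a p-value of 0 against 2.38% and 8.39% in the other groups.

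Reads behind a library 2 call could be recovered from p-values above 1e-07 only, at 194 of the 338 members. These had a median of 16 reads (14 to 17) with quartiles of 12 and 25, and the other library 2 sites a median of 13. At least 50 reads were found at 10.3% of these members and 2.51% of the other sites. The median share of converted reads was 27.3% in both groups, before any correction. These values leave out the sites with the smallest p-values, and the part of depth in the listing of members was not tested.

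Members of library 2 were listed by library 1 more often than other sites of library 2. Of the 172 plus-strand members of library 2, 89 were also in library 1, 51.7% (44.0% to 59.4%), against 34.1% of all permitted plus-strand sites of library 2. For those with a p-value at or below 1e-07 it was 57 of 69, 82.6% (71.6% to 90.7%), against 64.6% of all such plus-strand sites. Of the 39 plus-strand members of library 2 at 50% or more with Tdg shRNA, 36 were in library 1. Of the 166 minus-strand members, library 1 listed the plus-strand cytosine of the CpG at 45, 27.1% (20.5% to 34.5%), against 12% of all permitted minus-strand sites. Control-only sites had 21 of 58 on the plus strand, 36.2% (24.0% to 49.9%), close to the background. On the minus strand they had 13 of 68, 19.1% (10.6% to 30.5%). That interval includes the background of 12% and overlaps that of the members.

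Part of the members lay in the first 200 kb of the assembled sequence of a chromosome. In mouse chromosomes the centromere lies at 1 end, and the assembled sequence starts beside it. At positions up to 3200000 lay 58 members, 11.4% (8.78% to 14.5%), on 7 chromosomes, of which 30 were on chromosome 11 and 17 on chromosome 4. Of Tdg-only sites outside wild type 0.447% lay there, and of control-only sites in wild type 2 (0.518%). All permitted sites of library 1 and library 2 had 0.334% and 0.519% there. The 58 had levels from 2.57% to 100% with a median of 59.2% (38% to 74.4%), 32 were at 50% or more, and 42 had a p-value at or below 1e-07 in library 2. In these stretches the Tdg shRNA library listed 97 sites and the control library 22. Wild type listed 58 of the 85 Tdg-only sites there, 68.2% (57.2% to 77.9%), and 2 of the 11 control-only sites.

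Members formed a few dense runs. Joined where the next was within 1000 bp, they made 433 runs, of which 397 held 1 member, 26 held 2 and 10 held 3 or more. In all, 111 members (21.9%) had another within 1000 bp, against 16 of the 386 control-only sites (4.15%), which had no run of more than 2. Of the 6045 Tdg-only sites outside wild type, 25.7% had another of their kind within that distance, and their longest run held 9. Of the 10592 control-only sites outside wild type it was 35.9%, with a longest run of 12. The 5 longest runs held 42 members.

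The longest run lay on chromosome 4 from 3007234 to 3011548 and held 14 members with levels from 22.4% to 100% and a median of 65.7%. Every site that the Tdg shRNA library listed there was a member, and the control library listed none. All 14 were in library 2 with p-values of at most 6.19e-09, and 8 were in library 1 as well, where they ranged from 0 to 83.9% with a median of 48.0%. The third run had 6 members on chromosome 11 from 3001282 to 3002873, with levels from 6.93% to 98.8% and a median of 61.4%. The control library listed no site there either. Library 1 listed none of the 6, of which 5 are minus-strand cytosines that it cannot list. Both runs lie at chromosome starts.

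The second run had 11 members within 341 bp on chromosome 9, from 35112827 to 35113167. Levels there were low in the Tdg shRNA library, from 0.558% to 25.9% with a median of 6.09%, and in library 1, from 0.619% to 9.07%. The control library listed 6 sites in the same stretch with a median of 12.3%, so that library also had reads there. Reads could be recovered at 2 of its members, which had 39 and 1343, where the list's median is 13. The fourth run, on chromosome 12 from 68160163 to 68160697, had 6 members with a median of 29.5% and 1 control shRNA site at 13.3%. The fifth, on chromosome 17 from 39983228 to 39985010, had 5 members with a median of 9.20%, and the control library listed 11 sites there, as many as the Tdg shRNA library.

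Outside such places the share of Tdg-only sites in wild type was still above that of control-only sites, by a smaller factor. Dense windows were defined as the 99 windows of 10000 bp with at least 10 sites listed in both wild-type libraries. The rule used the same wild-type lists, so many listed sites in these windows are partly set in advance. Dense windows and chromosome starts together held 86 members and 9 control-only sites. Elsewhere 422 of 6424 Tdg-only sites were in wild type, 6.57% (5.98% to 7.20%), and 377 of 10932 control-only sites, 3.45% (3.11% to 3.81%). The share was then 1.90 times as high (1.65 to 2.19), while the ratio of counts was 1.12 with an interval of 0.972 to 1.29. Of the 95 members at 50% or more, 61 lay elsewhere. From 50% upwards 61 of 222 Tdg-only sites there were in wild type, 27.5%, and 9 of 259 control-only sites, 3.47%. Library 2 p-values at or below 1e-07 were found at 83 of 261 members elsewhere, 31.8% (26.2% to 37.8%).

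Every autosome held members, from 13 on chromosome 3 to 62 on chromosome 11. Chromosome 11 without the first 200 kb of its assembled sequence held 32, and chromosome 8, with 45 members and none at its start, then had the most. The share of Tdg-only sites listed in wild type was lowest on chromosome 2, at 4.10%, where the control-only share was 4.05%. It was highest on chromosome 11, at 10.8% against 5.22%. On each of the 19 chromosomes the Tdg-only share was above the control-only share.

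The distance to the control shRNA list did not set the members apart from other Tdg-only sites. A control shRNA site lay within 100 bp of 80 members, 15.7% (12.7% to 19.2%), and of 14.2% (13.3% to 15.1%) of Tdg-only sites outside wild type. Within 1000 bp the shares were 34.6% (30.5% to 39.0%) and 32.4% (31.2% to 33.6%). Members at 50% or more had such neighbours less often, 3 of 95 within 100 bp and 8 within 1000 bp. Of the 413 members below 50%, 77 and 168 had them. The same share over all Tdg-only sites at 50% or more was not analysed here. Whether the control library covered the places without a nearby control shRNA site is unknown. Closest to the limit of the rule were members 2 bp from a control shRNA site, at position 71339677 of chromosome 17 with 7.20% against 6.59% at the control site, and at position 128150748 of chromosome 6 with 12.5% against 11.7%. Just outside it, 8 Tdg shRNA sites had a control site at 1 base distance and not at the same base, and 7 of these were in wild type with levels from 3.03% to 75%. The member nearest to the excluded start of chromosome 9 was at 3200063, with 29.1%, and the last site excluded there that otherwise met the rule was at 3038256, with 12.5%. The excluded window of chromosome 2 held such sites from 98502453 to 98507161, and the nearest members were at 92755322, with 5.58%, and 116947187, with 15.4%.

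The bases around the CpG of members were mixed, with 57 of the 64 possible 5-base contexts present. The commonest was ggCGg, found at 28 of 259 members, 10.8% (7.30% to 15.2%), against 3.63% of the other sites of library 1. Those other sites come from the whole genome and members only from MspI fragments. A gap between these unlike sets cannot be read as particular to members. Control-only sites had it at 14 of 281, 4.98% (2.75% to 8.22%), an interval that overlaps that of the members. Next came ccCGc and gcCGc with 13 members each, 5.02% (2.70% to 8.43%), against 2.25% and 2.41% of the other sites and 6.41% and 5.69% of the control-only sites. Their median Tdg shRNA levels were 11.9% for ggCGg, 11.4% for ccCGc and 10.4% for gcCGc, near the median of all members. CpGs inside the MspI sequence CCGG were nearly missing, with 2 of 259 members (0.772%, 0.0937% to 2.76%) and 2 of 281 control-only sites, against 10.3% of the other library 1 sites. Both members stood at 100% with Tdg shRNA. The ccCGg site named above had 99.4% in library 1, and the tcCGg site, at position 22101254 of chromosome 10, was listed there at 0. MspI cuts at CCGG, and how the bases at fragment ends were handled before sites were listed was not analysed here.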

How the data were processed

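MAB-Seq lists of 4 libraries of E14 cells were used, each a list of single cytosines with 1 value. Per the submitters' processing notes, the authors used CASAVA 1.8, Bismark 0.10.1 and build mm9. How a site came to be listed is not given in the sources used here. Deposited percentages between 0 and 100 (library 1, both shRNA lists) all matched rounded percentages less a background of 3% (library 1), 2.9% (control shRNA) or 3.3% (Tdg shRNA), divided by the remainder. The deposited p-values of library 2 matched binomial tails over a background of 3.8%, and total and converted reads were recovered for 101128 of 118502 sites (tolerance 1e-08, up to 20000 reads), 99.97% of those with p-values above 1e-07, with a median of 13 reads and at least 10. The depth of the other libraries is unknown.

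Sites were matched by exact base with Python 3.11.15, pandas 2.3.3, NumPy 2.4.6 and SciPy 1.17.1. The scripts were tested on simulated data. Shares have exact Clopper-Pearson, ratios of counts exact conditional binomial and medians order-statistic 95% intervals. With 1 library per shRNA group no test between groups was run. The members and lists were chosen with earlier results of these data known. Sites named are the 10 members in both wild-type libraries with the highest Tdg shRNA level (ties by library 2 p-value, then library 1 level), the 5 longest runs, those at the limits of the rule, the 3 commonest contexts and those with CCGG. The 2 other members at 100% in both wild-type libraries, the chromosome 6 pair, the pairs on chromosomes 11 and 4, and the chromosome starts were chosen after their values were seen. Alternatives varied the exclusion distance, the wild-type support, the level and p-value limits, dense windows and close sites.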

Additional observations from a re-analysis of the deposited data

Results flagged for a closer look

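In places that the rule leaves out, more Tdg-only than control-only sites were listed in wild type. At the start of chromosome 9 these were 244 of 269 Tdg-only sites (exact Poisson 95% interval 214.3 to 276.6) and the 1 control-only site there (0.0253 to 5.57). The window on chromosome 2 had 37 of 40 (26.1 to 51.0) and 0 of 1 (up to 3.69). With 1 control-only site in each of these places, the control count could not exceed 1, and no difference between the shares can be read from them. Unplaced or random contigs had 229 (200.3 to 260.7) of 265 Tdg-only sites and 2 (0.242 to 7.22) of 24 control-only sites. On chromosome X, 26 of 195 Tdg-only sites (17.0 to 38.1) and 4 of 317 control-only sites (1.09 to 10.2) were in wild type. Each value rests on 1 library per shRNA, and the intervals cover counting error only.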

How the results depend on the processing

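No paired analysis was possible because the shRNA groups have 1 library each and the labels tie no wild-type library to either. The ratio of members to control-only sites was 1.32, the ratio of their shares 2.20 and the median level 12.6%. Leaving out 1 wild-type library moved the first between 0.922 and 2.68 and the second between 1.54 and 4.49. Support in both libraries gave 4.24, 7.10 and 28.9%. Support at either cytosine of a CpG gave 1.02 and 1.71. A level of at least 10% gave 2.07 and a median of 17.3%, where control-only sites had a median of 15.2%. Stricter limits in wild type (p-value at most 0.001, level at least 10%) gave 1.79, 3.00 and 15.4%. Without dense windows and chromosome starts, chosen after seeing the data, the ratios were 1.12 and 1.90. With no control site within 1000 bp the median was 14.7%, and uncorrected it was 15.5%. The ratio of shares stayed above 1 and the median above that of control-only sites in every alternative run. The ratio of counts was below 1 without library 2 only, and its interval included 1 also with support at either cytosine, with a distance of 1000 bp and without dense windows and chromosome starts. Without sites at 0 the library 1 median of members was 15.6%, against 13.6% for other sites. In library 2, 59.8% of the 194 members with recovered reads had more reads than the median of other sites. Of those other sites themselves 46.3% did. A p-value below the median of other sites was found at 74.6% of the 338 members and 47.8% of the other sites. Dropping low levels or sites at 0, or leaving levels uncorrected, raises a median by construction. The causes of the other shifts were not tested. Members in runs fell to 15.3% without dense windows. The shares of the 3 named contexts and of CCGG stayed within their intervals in the alternatives run. Unknown depth in 3 libraries limits all of these comparisons.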
